A study of Anguilla anguilla with 12 samples.

Results

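The transcription factors *gata4* and *foxl2a* and the keratin *krt18a.1* were followed through ovulation of the European eel as a measure of follicle cell RNA. They were chosen by their gene names in the count tables, which makes 3 of the 31061 genes listed. In vertebrate ovaries the oocyte grows inside a layer of granulosa cells with theca cells around it, and at ovulation it leaves both behind. GATA4 is a zinc finger factor that in mammals drives steroid-making genes in granulosa and theca cells. FOXL2 is a forkhead factor that holds granulosa cells to their fate in mammals and is active in the fish ovary as well. Keratin 18 is a type I keratin of simple epithelia that forms filaments with keratin 8, a type II keratin.

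The libraries came from 4 groups of 3: oocytes taken with a cannula before progesterone (P) injection (libraries 1, 5 and 9), eggs stripped after P (2, 6 and 10), oocytes taken before injection of DHP, the steroid 17α,20β-dihydroxy-4-pregnen-3-one (3, 7 and 11), and eggs stripped after DHP (4, 8 and 12). All females were eels feminized with 17β-estradiol as elvers and labelled wild type. They were given implants of 17-methyltestosterone and 17β-estradiol and then matured with repeated injections of carp pituitary extract. No group is thus free of hormone treatment. P is the precursor from which DHP is made. Each library holds a selection of oocytes or eggs of a single female, with 3 females per treatment. The methods describe no removal of follicles from the oocytes. In the study's histology, the oocytes sampled for its in vitro experiment were partly with and partly without follicle cells. The share with follicle cells among the sequenced oocytes is not given. Library totals ran from 6612347 to 9903122 counted fragments, and levels are given as CPM, the counts scaled to a common total of 1000000 per library. The oocyte gene *bmp15*, a growth factor that oocytes secrete, was at 371 ± 23.4 CPM (SD, n = 3) in P oocytes and 210 ± 16.2 in P eggs, and at 448 ± 103 in DHP oocytes and 220 ± 53.5 in DHP eggs. By TMM scaling, which sets the libraries to a common level over most genes, its log2 fold change was -0.07 ± 0.22 (SE) after P and -0.40 ± 0.33 after DHP, so that the lower CPM in eggs did not appear on that scale. Most of the oocyte list fell more than *bmp15*: the median log2 fold change of the 33 genes tested was -1.76 after P and -2.09 after DHP. Over all genes tested it was -0.26 and -0.20. Of these 33 oocyte genes, *bmp15* among them, 19 fell after P and 11 after DHP at an adjusted p under 0.01. Of all genes tested, 22.7% fell after P and 6.22% after DHP. Egg library 8 stood apart from the other eggs, as described with the results below.

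On the eel assembly fAngAng1.pri, *gata4* lies on chromosome 6 from 30227028 to 30250148, *foxl2a* on chromosome 12 from 24283617 to 24285771 and *krt18a.1* on chromosome 11 from 27752502 to 27757617. All 3 are annotated as protein-coding. The gene *krt8*, which encodes the partner of keratin 18, follows *krt18a.1* on chromosome 11, from 27779290 to 27786427.

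The first question was whether follicle cell RNA was still found in eggs after P. All 3 genes fell to the limit of detection. *gata4* had 1167, 1461 and 1229 counts in oocyte libraries 1, 5 and 9, and 0 in each of the 3 egg libraries. *foxl2a* had 750, 1070 and 789 counts in the same oocytes and again 0 in each egg library. *krt18a.1* had 1068, 1300 and 1089 counts in the oocytes and 3, 0 and 3 in egg libraries 2, 6 and 10. The groups did not overlap for any of the 3 genes, which held for 36.9% of all genes tested in this direction. In these bulk samples, fewer follicle cells and less of the transcript in each cell cannot be told apart. The part of the oocyte's own RNA in these counts was not tested.

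With 3 counts over the 3 egg libraries as the floor and TMM-scaled library sizes, *gata4* was at least 812-fold and *foxl2a* at least 545-fold lower in P eggs than in P oocytes. *krt18a.1* fell with a log2 fold change of -8.43 ± 0.59 (SE, n = 3). In edgeR's quasi-likelihood test over all genes, the adjusted p was 1.45e-05 for *gata4* and *krt18a.1* and 1.53e-05 for *foxl2a*. The 3 genes thus passed the threshold of 0.01, as 22.7% of the 15348 genes tested did in this direction. A gene at 0 in the eggs enters such a test through its level in the oocytes alone. A library without a count still allows up to 3, which is at most 0.239% of the mean level in P oocytes for *gata4* and at most 0.355% for *foxl2a*. These limits, and the intervals given further on, cover counting error only.

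**Figure D1:**
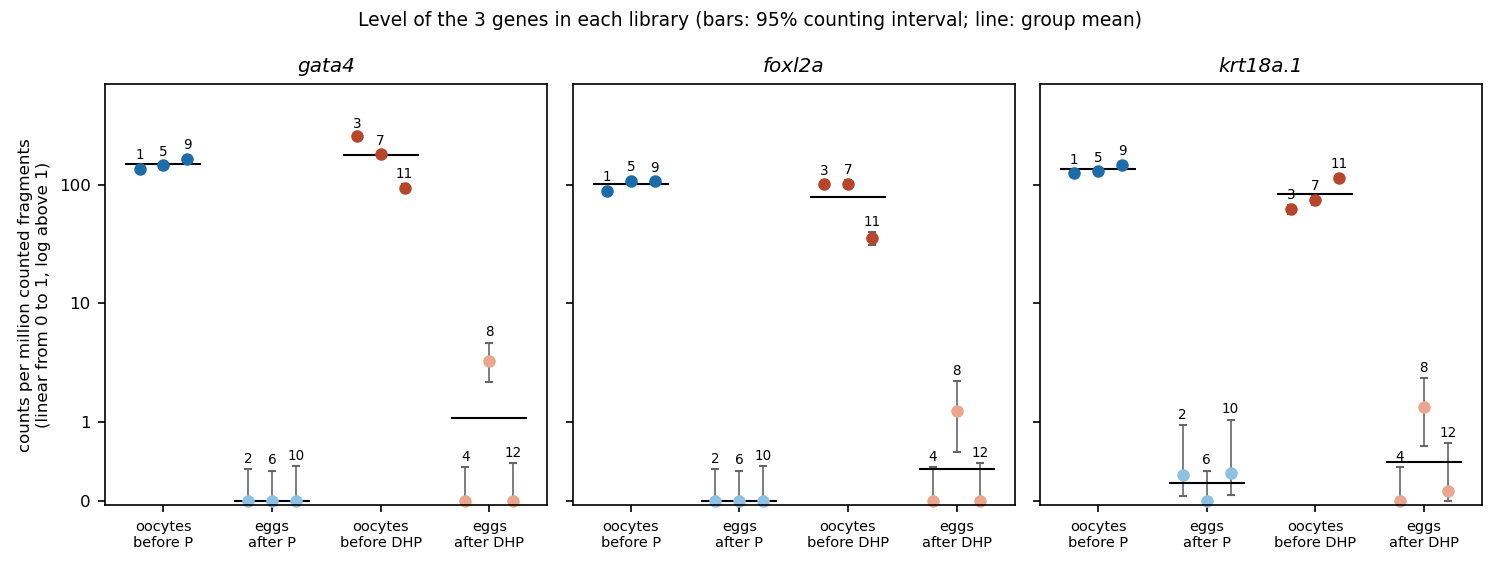
Level of *gata4*, *foxl2a* and *krt18a.1* in each of the 12 libraries, in CPM on an axis that is linear from 0 to 1 and logarithmic above; points are libraries, labelled by number, with exact 95% Poisson intervals, and lines are group means. P oocytes sit close together, DHP oocytes spread out, and library 8 is the egg library with the highest level of each gene.

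The same question was asked of the eggs after DHP, where library 8 differed from the other eggs. *gata4* had 2371, 1200 and 747 counts in oocyte libraries 3, 7 and 11, and 0, 29 and 0 in egg libraries 4, 8 and 12. *foxl2a* had 930, 666 and 282 counts in these oocytes, and 0, 11 and 0 in the eggs. *krt18a.1* had 574, 488 and 912 counts in the oocytes, and 0, 12 and 1 in the eggs. Oocytes and eggs did not overlap for any of the 3 genes, as was the case for 29% of all genes tested in this direction. Library 8 held all of the *gata4* and *foxl2a* counts found in the 6 egg libraries.

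All 3 genes were lower in DHP eggs. The log2 fold change was -6.67 ± 1.26 (SE, n = 3) for *gata4*, with an adjusted p of 0.00548 from edgeR. It was -6.86 ± 1.13 for *foxl2a* (edgeR adjusted p = 0.00368) and -6.70 ± 0.98 for *krt18a.1* (edgeR adjusted p = 0.00273). Of the 15149 genes tested, 6.22% passed in this direction.

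With 1 library left out at a time, *gata4* missed the threshold in 5 of the 6 fits, *foxl2a* in 3 and *krt18a.1* in 2. Without library 8, no count was left for *gata4* and *foxl2a* in DHP eggs, which then lay at least 651-fold and at least 289-fold below the oocytes, and the change of *krt18a.1* was -9.54 ± 0.91. The adjusted p of *gata4* from edgeR rose to 0.0112 when oocyte library 3 was dropped, to 0.0179 with oocyte library 7 dropped and to 0.0121 with oocyte library 11 dropped, and to 0.0138 and 0.0186 when egg libraries 4 and 12 were dropped in turn. That of *foxl2a* rose to 0.0105 when library 4, to 0.0150 when library 7 and to 0.0150 when library 12 was dropped, and that of *krt18a.1* to 0.0101 when library 7 and to 0.0137 when library 12 was dropped. The changes stayed about as large. In the 5 fits that kept library 8, the log2 fold change was -7.07 to -6.05 for *gata4*, -7.28 to -6.24 for *foxl2a* and -6.86 to -6.07 for *krt18a.1*. Fewer genes of any kind were called with 5 libraries, 122 to 1708 against 2057 with all 6.

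Whether the fall differed between the treatments was tested in 1 fit of all 12 libraries. The difference in log2 fold change, P minus DHP, was -1.80 ± 1.22 (SE) for *krt18a.1*, with an unadjusted p of 0.161 and an edgeR adjusted p of 0.9999. For *gata4* the unadjusted p was 0.0276 and for *foxl2a* 0.0264, both with an adjusted p of 0.9999. The fitted differences of these 2 genes depend on how a group at 0 counts is fitted. Without library 8 neither gene had a count in any egg library, so that no difference could be estimated. Over all genes, 0 of 16891 passed in edgeR, 0 in limma-voom and 3 in DESeq2, and 699 had an unadjusted edgeR p below 0.05. P eggs and DHP eggs could not be compared for these genes in the main test, as none of them passed the filter on low counts. In a fit with no filter, all 3 were lower in P eggs by the fitted value and none passed, with edgeR adjusted p of 0.251 for *gata4*, 0.818 for *foxl2a* and 0.937 for *krt18a.1*. This fit called 63 of 22130 genes. In the main test of the eggs, 0 of 13178 genes passed in edgeR, 0 in limma-voom and 9 in DESeq2, and 602 had an unadjusted edgeR p below 0.05.

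What each egg library kept was set against the oocyte library of the same pair. In library 8 the level of *gata4* was 1.79% of that in library 7 (95% Poisson interval 1.2003 to 2.57), that of *foxl2a* 1.22% (0.611 to 2.19) and that of *krt18a.1* 1.82% (0.942 to 3.19). The intervals of the 3 genes overlapped one another. Against the mean of the 3 DHP oocyte libraries, the shares were 1.84%, 1.56% and 1.61%, and with TMM-scaled library sizes 3.10%, 2.65% and 2.77%. In the other 5 egg libraries only *krt18a.1* had counts: 0.262% of its level in the paired oocytes in library 2 (0.0540 to 0.766), 0.244% in library 10 (0.0502 to 0.712) and 0.115% in library 12 (0.00291 to 0.640).

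The higher level in library 8 was not particular to these genes. Of the 741 genes that had a mean of at least 5 CPM in oocytes, under 5% of it in eggs and a count in at least 1 egg library, 454 (61.3%) were highest in library 8. Among genes of this kind with at least 100 counts in library 7, library 8 kept a median of 3.30% (quartiles 1.11 and 8.32). The 3 genes lay inside these quartiles and below the median. Over such genes the median share was between 0.371% in library 4 and 1.61% in library 12 in the other 5 egg libraries. *zar1l*, an oocyte gene of maternal RNA control, was also highest in library 8 among the eggs, with 1173 counts against 138 to 388. This comparison was chosen after the values had been seen.

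**Figure D2:**
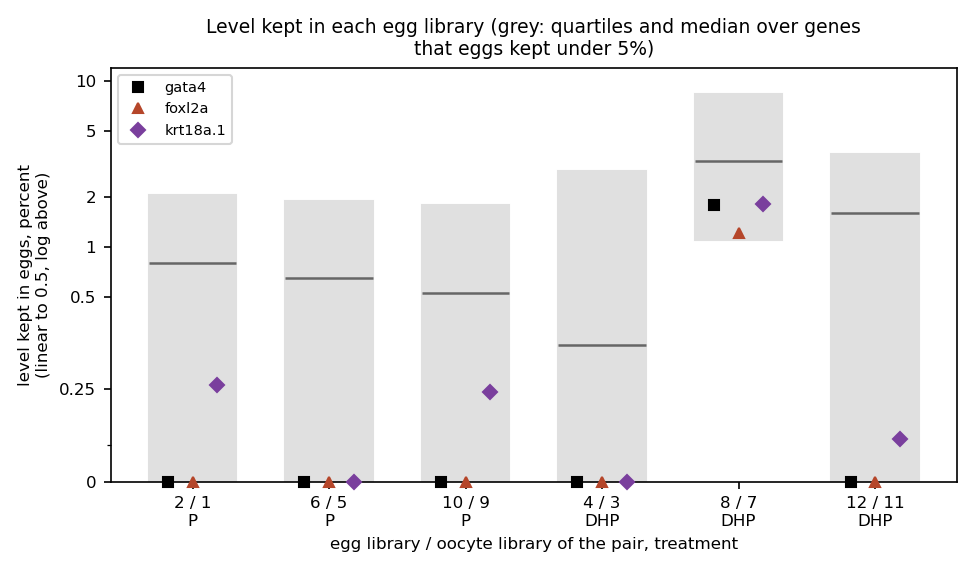
Level of the 3 genes in each egg library as percent of the oocyte library of its pair, on an axis that is linear to 0.5 and logarithmic above; grey boxes and lines are the quartiles and medians over genes with at least 100 counts in that oocyte library whose mean in eggs was under 5% of that in oocytes. In library 8 the 3 genes (1.22% to 1.82%) lie below the median of 3.30%, and in the other pairs all but 3 points are at 0.

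Genes of the follicle did not keep one common share in library 8. Close to the 3 genes were *gata6*, a relative of *gata4* active in the same cells, with 1.38% of library 7 (1.03 to 1.80), and the progesterone receptor-like gene LOC118235591 with 2.36% (1.65 to 3.27). The estrogen receptor gene *esr2b* kept 2.45% (1.27 to 4.28). On 2 counts each, *nr5a2* kept 1.02% (0.123 to 3.67), *star* 1.06% (0.128 to 3.83) and *hsd17b1* 0.677% (0.0820 to 2.45). *inha* and *lhcgr* had 0 counts, with upper limits of 2.22% and 1.40%. Intervals of all these genes overlapped those of the 3 genes. Far lower were LOC118218511, a 17α-hydroxylase/17,20 lyase that makes steroid precursors, with 1 count against 2162 in library 7 (0.0343%, 0.000868 to 0.191), and the progesterone receptor *pgr*, with 5 counts against 2398 (0.155%, 0.0502 to 0.361). The 3β-hydroxysteroid dehydrogenase LOC118214002, which makes progesterone, kept 0.225% (0.0730 to 0.525). Intervals of these 3 genes lay below those of all 3 follicle cell identity genes. Other follicle genes kept more than the identity genes. The cholesterol side-chain cleavage enzyme gene LOC118215491 kept 4.93% (4.07 to 5.92) and the androgen receptor-like LOC118223864 6.86% (3.42 to 12.3). The hydroxysteroid dehydrogenase gene *hsd20b2* kept 26.3% (18.6 to 36.2), and the 3β-hydroxysteroid dehydrogenase-like LOC118214003 stood at 170% (159 to 181). LOC118231945, another 17α-hydroxylase/17,20 lyase, kept 2.83% (2.25 to 3.51), so that 2 genes annotated as the same enzyme kept different shares. *krt8* kept 4.13% (2.65 to 6.14), an interval that overlaps that of *krt18a.1*. Not all of these genes stood out in library 8 among the eggs. In egg libraries 2, 6, 10, 4, 8 and 12, *pgr* had 1, 12, 1, 17, 5 and 3 counts. In the same order LOC118214002 had 2, 35, 1, 28, 5 and 24 counts, and LOC118215491 had 89, 116, 63, 45, 114 and 124. LOC118214003 had 1319, 1563, 1784, 320, 955 and 501 counts, and was thus abundant in all egg libraries. Its share in library 8 is therefore not a measure of follicle cell RNA alone. *hsd20b2* had 38 counts in library 8 and 12 to 25 in the other egg libraries. LOC118235591, LOC118231945 and LOC118223864 had egg counts in library 8 only.

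Markers of other cells that surround oocytes differed as much among themselves. The smooth muscle genes *tagln* and *acta2*, of an actin-binding protein and an actin, kept 22.8% (18.1 to 28.4) and 8.73% (6.04 to 12.2) in library 8. *kcnj8* and *abcc9*, which encode parts of a potassium channel found in the muscle of blood vessels, had 0 counts there against 782 and 294 in library 7. The summed level of the 7 stroma genes was 7.51 CPM in library 8, the highest among eggs, and 0.986 to 3.28 in the other egg libraries. The summed level of the oocyte list was also highest in library 8, at 1548 CPM against 1035 to 1268 in the other egg libraries. Sums of the endothelial, blood and smooth muscle lists did not peak in library 8. The endothelial sum was highest in library 12 (14.8 CPM against 7.51 in library 8), as was the blood sum (22.3 against 9.76). The smooth muscle sum was highest in library 6 (399 against 389). The part of these cells in the counts of library 8 was not tested.

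**Figure D3:**
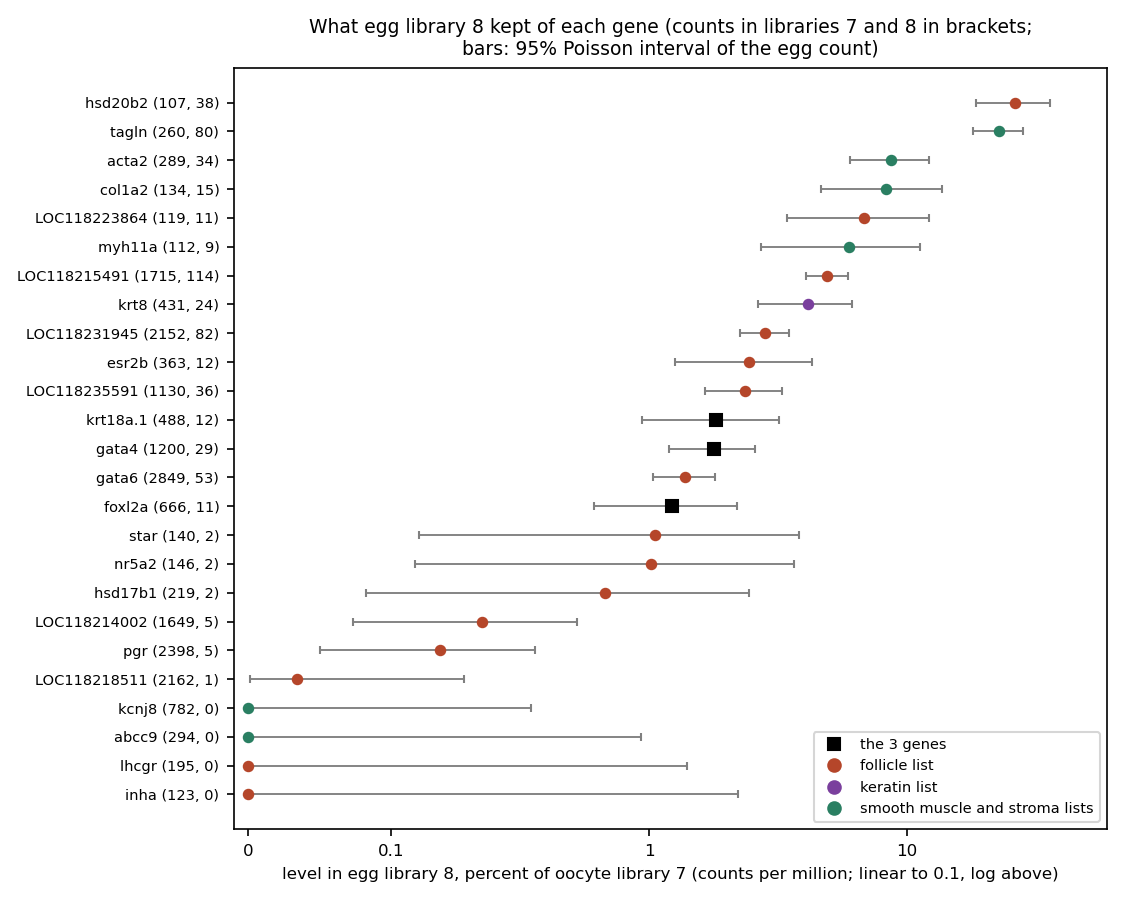
Level in egg library 8 as percent of oocyte library 7 for the 3 genes and the genes of the follicle, keratin, smooth muscle and stroma lists with at least 100 counts in library 7, with exact 95% Poisson intervals of the egg count; counts in libraries 7 and 8 stand in brackets, and genes kept at 50% or more are not drawn. The 3 genes (black squares) lie from 1.22% to 1.82%, with intervals that together run from 0.611 to 3.19. The others drawn run from 0 to 26.3%. Intervals of other follicle genes, among them *gata6*, *nr5a2*, *star* and *esr2b*, overlap those of the 3 genes. LOC118214003 of the follicle list, at 170%, is not drawn.

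The oocytes were then compared before the injections, where the treatments had not yet begun. *gata4* was at 137, 148 and 166 CPM in P oocytes and at 257, 181 and 93.5 CPM in DHP oocytes. *foxl2a* was at 88.1, 108 and 107 CPM in P oocytes and at 101, 101 and 35.3 CPM in DHP oocytes. *krt18a.1* was at 125, 131 and 147 CPM in P oocytes and at 62.1, 73.8 and 114 CPM in DHP oocytes. The groups overlapped for *gata4* and *foxl2a*. For *krt18a.1* all 3 DHP oocyte libraries lay below all 3 P oocyte libraries, as did 4.07% of the 16153 genes tested.

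None of these differences passed the test. The log2 fold change, DHP oocytes over P oocytes, was 0.29 ± 0.36 (SE, n = 3) for *gata4*, -0.31 ± 0.39 for *foxl2a* and -0.65 ± 0.29 for *krt18a.1*, each with an edgeR adjusted p of 0.999. The unadjusted p of *krt18a.1* was 0.0514. Over all genes, 0 passed in edgeR, 0 in limma-voom and 10 in DESeq2, and 494 had an unadjusted edgeR p below 0.05. Without library 3 the value of *gata4* turned to -0.11, and without library 11 that of *foxl2a* turned to 0.04.

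By mean level, *gata4* was ordered as DHP oocytes (177 ± 81.6 CPM), P oocytes (150 ± 14.8), DHP eggs (1.08 ± 1.88) and P eggs (0). Its neighbours within oocytes and within eggs did not differ beyond the spread. *foxl2a* was ordered as P oocytes (101 ± 11.2), DHP oocytes (78.9 ± 37.7), DHP eggs (0.411 ± 0.712) and P eggs (0), with the same overlaps. *krt18a.1* was ordered as P oocytes (135 ± 11.3), DHP oocytes (83.4 ± 27.3), DHP eggs (0.492 ± 0.742) and P eggs (0.229 ± 0.199), where the egg groups overlapped and the oocyte groups did not, although their difference missed the test as given above.

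The spread differed between the oocyte groups. The coefficient of variation of *gata4* was 9.83% in P oocytes and 46.0% in DHP oocytes, that of *foxl2a* 11.1% and 47.8%, and that of *krt18a.1* 8.40% and 32.8%. The SDs of log2 CPM that follow used TMM-scaled library sizes, unlike these coefficients. Over all genes tested, the median SD of log2 CPM was 0.459 and 0.493 in the 2 groups, and 52.5% of genes had the larger SD in DHP oocytes. P oocytes thus had less spread in these genes than in the median gene (SD of log2 CPM 0.158 to 0.176), while *gata4* and *foxl2a* had more in DHP oocytes (0.778 and 0.901) and *krt18a.1* less (0.416). The genes were not matched on level, and counting error adds more to the SD of genes with few counts. With 3 libraries a group, the difference in spread was not tested.

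Ratios between the 3 genes within a library do not depend on the scaling of libraries. In P oocytes the counts of *krt18a.1* were 0.915, 0.890 and 0.886 times those of *gata4*, and their 95% intervals overlapped. In DHP oocytes the ratio was 0.242 in library 3 (0.221 to 0.265), 0.407 in library 7 (0.365 to 0.452) and 1.22 in library 11 (1.11 to 1.35), with no overlap between any of the 3. The ratio of *krt18a.1* to *foxl2a* was 1.21 to 1.42 in P oocytes and 0.617, 0.733 and 3.23 in libraries 3, 7 and 11. The keratin and the transcription factors therefore did not rise and fall together among the females of the DHP group.

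Among the DHP oocytes the 2 transcription factors kept closer to each other than either did to *krt18a.1*. Among the P oocytes the ratio of *krt18a.1* to *gata4* varied least, from 0.886 to 0.915. The ratio of *gata4* to *foxl2a* was 1.56, 1.37 and 1.56 in P oocytes and 2.55, 1.80 and 2.65 in DHP oocytes, so that all 3 DHP libraries lay above all 3 P libraries. The ratios were looked at after the values had been seen, and their difference was not tested. Marker genes of other cells differed as well among these libraries. The summed level of the 10 smooth muscle genes was 1359 CPM in library 3 and 693 to 1006 in the other 5 oocyte libraries. This sum was still 311 to 399 CPM in P eggs and 297 to 389 in DHP eggs, so that it is not a measure of surrounding cells alone. The summed level of the 7 stroma genes was 251 CPM in library 3, 45.1 in library 7 and 325 in library 11, against 56.2 to 209 in P oocytes. The part of other cells in the ratios was not tested.

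**Figure D4:**
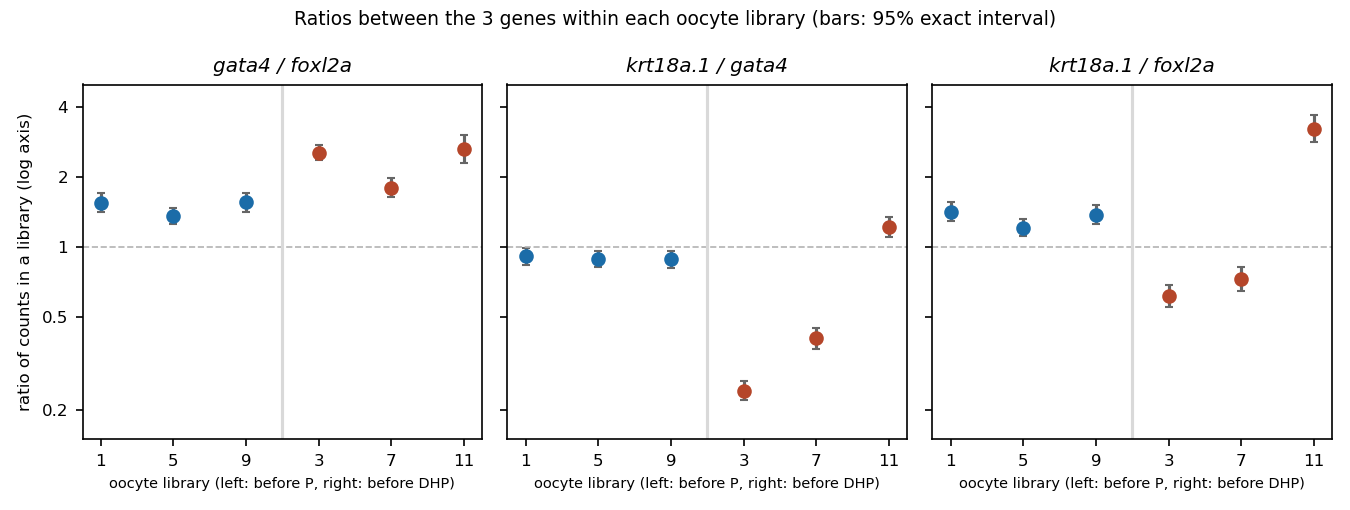
Ratio of the counts of 2 genes within each of the 6 oocyte libraries on a logarithmic axis, with exact 95% intervals; blue points are P oocytes and red points DHP oocytes. The P libraries form a narrow band in each panel, whereas *krt18a.1* over *gata4* runs from 0.242 to 1.22 among the DHP libraries.

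Over the 6 oocyte libraries, the log2 CPM of *gata4* and *foxl2a* had Pearson's r = 0.77 (exact permutation p = 0.0972, adjusted over 3 pairs 0.285) and Spearman's rho = 0.43 (exact permutation p = 0.419, adjusted 0.419). Without libraries 3 and 11, the farthest in *gata4*, r was 0.49. *gata4* and *krt18a.1* had r = -0.64 (exact permutation p = 0.190, adjusted 0.285) and rho = -0.43 (exact permutation p = 0.419, adjusted 0.419), with r = -0.61 without the same libraries. *foxl2a* and *krt18a.1* had r = -0.11 (exact permutation p = 0.931, adjusted 0.931) and rho = 0.49 (exact permutation p = 0.356, adjusted 0.419). Without libraries 1 and 11, the farthest in *foxl2a*, r was 0.96, but 0.52 with TMM scaling. No pair passed a two-sided test.

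The genes most like each of the 3 were sought among 14037 genes by the mean absolute difference of centred log2 normalized counts over the 12 libraries. Nearest to *gata4* were LOC118235591, the progesterone receptor-like gene (0.157), LOC118236225, annotated as glycerophosphodiester phosphodiesterase domain-containing protein 5-like (0.361), *krt8* (0.461) and LOC118231256, an enzyme of sialic acid synthesis (0.470). LOC118235591 had 1319, 1587 and 1936 counts in P oocytes, 2014, 1130 and 754 in DHP oocytes, and 36 in library 8 as its only egg counts. Nearest to *foxl2a* were LOC118207285, claudin-19-like and of a family of tight junction proteins (0.272), *znf648* (0.309), *vsnl1b* (0.381) and again LOC118231256 (0.427). Nearest to *krt18a.1*, at larger distances, were *atp1b1a*, a subunit of the sodium pump (0.646), LOC118214439, a potassium channel subunit (0.660), LOC118231958, RNA-binding protein 47-like (0.663), and *serpinh1b*, a collagen chaperone (0.677). *foxl2a* ranked 5 in likeness to *gata4*, and *krt18a.1* ranked 34. Distances between profiles rest in large part on the oocyte-to-egg contrast and on library 8.

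Among relatives of the 3 genes, *gata6* had 2713, 2846 and 3930 counts in P oocytes, 3714, 2849 and 1647 in DHP oocytes, 14, 1 and 4 in P eggs and 0, 53 and 1 in DHP eggs. It fell after P, with a log2 fold change of -8.34 ± 0.65 (SE; edgeR adjusted p = 1.88e-05), and after DHP, with -6.74 ± 1.29 (edgeR adjusted p = 0.00564). *zfpm1*, which encodes a cofactor of GATA proteins, was found in all 12 libraries and did not pass after P (log2 fold change -0.07 ± 0.46) or DHP (-0.88 ± 0.51). LOC118229651, annotated as forkhead box protein L2-like, had 55, 19 and 55 counts in P oocytes and 197, 137 and 25 in DHP oocytes. It had 0, 0 and 3 counts in P eggs and 11, 8 and 3 in DHP eggs, where library 4 rather than library 8 was the highest. It fell after P (-4.66 ± 1.16, edgeR adjusted p = 0.00683), whereas the value after DHP (-3.53 ± 0.84) missed the threshold (edgeR adjusted p = 0.0125). *krt8* had 881, 1126 and 1626 counts in P oocytes and 796, 431 and 1053 in DHP oocytes, and its only egg counts were 24 in library 8. LOC118211710, keratin 18-like, fell after P and DHP with log2 fold changes of -9.12 ± 0.99 and -6.60 ± 1.01 (edgeR adjusted p = 7.57e-05 and 0.00309). The neighbouring keratin 18-like gene LOC118208532 had 2 counts in all 12 libraries. How the counting treated reads that match several such relatives is not stated in the methods.

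The other follicle genes were taken as a list of 34 gonadal receptors, steroidogenic enzymes and factors that leaves out the 3 genes. After P, 22 of the 34 passed the filter, and 20 of these fell and 1 rose, where 22.7% of all genes tested fell. The list had a median log2 fold change of -7.94 against -0.26 over all genes tested. With the 12 genes at 0 in P eggs set to their bound, the median was -6.57. Those that fell included *pgr* (-8.36 ± 0.67) and the steroid-making LOC118214002 (-7.10 ± 0.88), while *lhcgr*, the receptor for luteinizing hormone, and *inha*, the inhibin alpha subunit, had 0 counts in each P egg library. LOC118214003, another 3β-hydroxysteroid dehydrogenase-like gene, rose by 1.44 ± 0.30 (log2, edgeR adjusted p = 0.00252), as 17.9% of all genes tested did. After DHP, 18 passed the filter and 12 fell, where 6.22% of all genes tested fell. The median was -5.86 against -0.20 over all genes (-5.60 with the gene at 0 set to its bound). Fits that left out 1 library at a time tested 18 to 23 of the list. With oocyte library 3, 7 or 11 dropped, 11, 6 and 8 of the list fell, as did 3.34%, 0.794% and 1.52% of all genes. When egg library 4, 8 or 12 was dropped, 7, 14 and 2 fell, as did 1.35%, 5.93% and 0.348% of all genes.

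The summed level of this list was 2338 to 3266 CPM in P oocytes, 1572 to 2438 in DHP oocytes, 161 to 228 in P eggs and 54.3 to 152 in DHP eggs. The sum of the 3 genes was 243 to 420 CPM in oocytes and at most 0.359 CPM in P eggs and 5.83 in DHP eggs. Between 69.1% and 93.5% of the list's counts in an egg library came from LOC118214003, the gene that rose after P. Without this gene, P eggs held 0.474% to 0.883% of the list's sum in the paired oocytes, against 0 to 0.0938% for the 3 genes. In DHP eggs the list without it stood at 0.915%, 1.89% and 1.59% in libraries 4, 8 and 12, against 0, 1.64% and 0.0539% for the 3 genes. With LOC118214003 kept in, the list stood at 6.24% in library 8. Its share there lay close to that of the 3 genes only without this gene, and single genes of the list differed widely, as described above. Of the keratin list of 14 genes, which also leaves out *krt18a.1*, 4 passed the filter, of which 3 fell after P and 2 after DHP (22.7% and 6.22% of all genes tested).

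Markers of other cells were counted in the same way, to be read against the 22.7% of all genes tested that fell after P and the 6.22% after DHP. Of the 10 smooth muscle genes, 6 of 8 tested fell after P and 3 of 8 after DHP, and of the 7 stroma genes 4 of 5 and 2 of 4. Of the 8 endothelial genes, 2 of 7 tested fell after P and 0 of 6 after DHP, and 0 of 3 blood genes tested passed in either. The endothelial count after P was thus near the share of all genes. The desmosome genes of epithelia had 2 higher and 2 lower of 15 after P and 1 lower of 15 after DHP. Of the 4 surface epithelium genes, 3 were tested, with 2 higher after P and 1 after DHP, among them *epcam*, an adhesion molecule of epithelia (log2 fold changes 2.03 and 1.62, edgeR adjusted p = 0.00101 and 0.00712; of all genes tested after DHP, 7.35% rose). The summed level of the surface epithelium list was 1310 to 1891 CPM in P eggs and 629 to 855 in P oocytes. It was 1365 to 1941 CPM in DHP eggs and 713 to 1229 in DHP oocytes. The part of the egg's own transcripts in these counts was not tested. The list of 35 oocyte genes had 33 tested, with 19 lower and 2 higher after P and 11 lower and 2 higher after DHP, where 22.7% of all genes fell and 17.9% rose after P, and 6.22% fell and 7.35% rose after DHP. Among those that fell was *zar1l*, from 896 ± 27.5 CPM (SD, n = 3) in P oocytes to 19.98 ± 7.23 in P eggs.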

How the data were processed

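The fragment counts per gene were made and deposited by the authors, who aligned reads of stranded poly(A) libraries to the European eel genome with TopHat 2.0.13, removed secondary alignments with SAMtools 1.2 and counted with HTSeq 0.6.1p1. The sources used here do not give the strand setting of HTSeq. The tables also hold the authors' own DESeq comparisons, which were not used. The number of per-sample columns not used was 0. Replicates are females, as the labels (biological replicates) and methods state.

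For each comparison the 6 libraries were fitted in R 4.3.3 by the quasi-likelihood method of edgeR 4.0.16 after TMM scaling, on genes past filterByExpr (minimum count 10, minimum total 15), and called at a Benjamini-Hochberg adjusted p under 0.01 over all genes tested. DESeq2 1.42.0 and limma 3.58.1 were alternatives, beside other scalings, no filter, thinning, 1 fit of all libraries, pairing and each library left out. The programs were tested on simulated data. Shares and intervals used Python 3.11.15 and scipy 1.17.1. Where a group held 0 counts, 3 counts over the group gave the bound of a fold.

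By the methods, eggs were sampled from the same females as the oocytes. Libraries were paired by the order of their numbers in the deposited comparisons (1 and 2, 5 and 6, 9 and 10, 3 and 4, 7 and 8, 11 and 12). Deviations from group means correlated with r of 0.262 to 0.389 within these pairs and -0.278 to -0.0736 in other combinations. Such deviations cancel within each group, so a positive r in a pair forces negative values elsewhere. The negative values are thus not separate evidence for the pairing. The main test was unpaired, as in the study.

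The genes and lists were chosen with earlier results of these data known. Lists were matched on symbols and products, and WT1-interacting proteins were left out of the follicle list after the matches had been seen. Named besides the 3 genes were the 4 genes most like each (at least 20 normalized counts on average in oocytes and 10 over all libraries, pseudocount 1), relatives, all follicle list genes, and of other lists those with the highest counts. *kcnj8* and *abcc9* were named after their values had been seen. No sequences are shown, as no sequence table of the eel was used here.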

Additional observations from a re-analysis of the deposited data

How the results depend on the processing

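All 3 genes stayed lower and past the threshold in P eggs under every alternative run, and in DHP eggs under every alternative that kept all libraries. Leaving out 1 library gave log2 fold changes in DHP eggs of -9.35 to -6.05 for *gata4*, -8.17 to -6.24 for *foxl2a* and -9.54 to -6.07 for *krt18a.1*, with 5, 3 and 2 fits missing the threshold as described above. The ends at -9.35 and -8.17, without library 8, are bounds against eggs at 0 counts. Such fits gave -0.11 to 0.60, -0.55 to 0.04 and -0.94 to -0.49 for DHP against P oocytes, and for the difference between treatments in *krt18a.1* -2.41 to 1.10. That of *gata4* and *foxl2a* had no value without library 8. The sign turned for *gata4* without library 3 in the oocytes (-0.11), for *foxl2a* without library 11 (0.0436), and for the difference in *krt18a.1* without library 8 (1.10 ± 1.27, SE). The number of follicle list genes lower after DHP was 2 to 14. These are fits of fewer samples. Over all genes the number called after DHP was 2057, from 2137 to 4466 under alternatives that kept all libraries and from 122 to 1708 with 1 left out.

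With the libraries paired as a replicate block, the log2 fold change in DHP eggs was -7.47, -7.30 and -7.00 for *gata4*, *foxl2a* and *krt18a.1*. For *krt18a.1* it was -8.44 in P eggs and the difference was -1.61. No call on these genes changed. The pairs gave 15 follicle list genes lower after DHP and 20 after P. Scaling by total counts shifted the median of all genes from -0.26 to -1.002 after P and from -0.20 to -0.79 after DHP, with 5197 of 6503 called genes lower after P (3483 of 6227 with TMM) and 2097 of 2593 after DHP (943 of 2057). The share of *gata4* kept in library 8 was 3.10% with TMM and 2.81% with RLE scaling, against 1.84%. TMM scaling gave r of 0.78, -0.62 and -0.14 for the relations, and 0.62, -0.49 and 0.52 with the farthest libraries left out. A search of promoters for motifs was not run. Depth limits what eggs can show: 3 counts in an egg library correspond to 0.314 to 0.393 CPM.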
